A study of Mus musculus with 10 samples.

Results

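B cells whose antibody heavy chain carries a basic CDR3 were followed in the spleens of BXD2 mice, an inbred strain that forms germinal centres and autoantibodies spontaneously. The rule took productive, high-confidence heavy-chain contigs with a called constant gene and kept the contig with most UMIs per cell barcode. It then dropped the first 3 residues and the last one of the CDR3 and counted arginine (R) and lysine (K) in what was left, called the trimmed CDR3 here. A clone is 1 combination of V gene, J gene and CDR3 nucleotide sequence within 1 mouse. Clones with 2 or more R or K were called basic. They numbered 244 of 3205 (7.61%), seen in 281 of 4103 barcodes, and were compared with the 2106 clones that had 0; 855 clones with exactly 1 stood outside the comparison.

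The mice were 3 BXD2-p19-/- animals (2 females, and a male, p19-/- 3) and 2 female BXD2-WT animals. The knockout removes p19, a chain of the cytokine IL-23 that the gene Il23a encodes, and both groups share the BXD2 background. Each spleen gave 1 RNA and 1 B cell receptor library, made with the 10x 5' kit; the labels name B and T cells and give no age, sort or gate. Il23a had 0 UMIs in all 5 RNA libraries, so the transcript could not check the genotype labels.

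The CDR3 of the heavy chain is formed where the V, D and J segments are joined, and it usually lies at the centre of the antigen-binding site. Arginine and lysine are positively charged, and arginine-rich CDR3s are known from antibodies to DNA, whose backbone is negatively charged. No binding was measured here, so the class describes sequence only. Class switching exchanges the constant gene (IgM or IgD for IgG, IgA or IgE) and leaves the CDR3 as it is, while somatic hypermutation in the germinal centre can change single bases of it.

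The largest basic clone of each mouse shows what the rule selected; in WT 2, 2 clones shared that size and the one with more heavy-chain UMIs is printed. Bases run 5′ to 3′ over the whole CDR3, and capitals mark the arginine and lysine codons counted.
p19-/- 1, IGHV5-17 and IGHJ4, IgG2c, 7 barcodes: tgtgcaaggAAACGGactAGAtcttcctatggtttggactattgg
p19-/- 2, IGHV1-47 and IGHJ4, IgM, 13 barcodes: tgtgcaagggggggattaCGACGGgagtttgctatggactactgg
p19-/- 3, IGHV3-6 and IGHJ4, IgG1, 2 barcodes: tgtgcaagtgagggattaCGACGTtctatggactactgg
WT 1, IGHV1-76 and IGHJ1, IgG1, 3 barcodes: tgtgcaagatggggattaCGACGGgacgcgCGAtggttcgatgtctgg
WT 2, IGHV2-9-1 and IGHJ1, IgG1, 2 barcodes: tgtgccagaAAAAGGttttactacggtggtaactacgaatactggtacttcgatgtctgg
In each of the 5 printed, at least 2 counted codons stand next to each other. The largest number of R and K was 4, reached by 2 clones, 1 of them an IgG2c clone of p19-/- 2 (IGHV1-26 and IGHJ1) with 4 arginines.
Clone with 4: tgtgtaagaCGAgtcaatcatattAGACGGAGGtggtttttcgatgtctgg

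For comparison, the largest clones with 0 in p19-/- 1 (IGHV1-80, IgM, 321 barcodes) and p19-/- 3 (IGHV1-15, IgA, 40 barcodes) read as follows.
p19-/- 1: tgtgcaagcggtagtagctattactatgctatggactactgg
p19-/- 3: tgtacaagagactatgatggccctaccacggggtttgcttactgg
The largest basic clone held 13 barcodes. Of the 321 barcodes, 248 were joined to RNA that passed the filters, and 220 of those fell in a cluster led by Sox4, Plac8 and Pcp4, described with the cell classes.

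Among all clones the number of R and K fell off steeply: 2106 had 0, 855 had 1, 191 had 2, 51 had 3 and 2 had 4. Clones just outside and just inside the rule's threshold, with 1 and with 2, averaged 10.7 and 11 residues after trimming, 1.53 and 1.57 acidic residues and 2.21 and 1.79 tyrosines. Of those with 1, 41.4% used IGHJ4 and 76.5% were class-switched, and of those with 2, 44.5% and 74.9%. The basic clones carried 543 basic residues, 452 arginines (83.2%) and 91 lysines. Arginine alone was used by 164 clones, lysine alone by 9 and both by 71. The arginine codons were CGG in 118 cases, AGG in 115, CGA in 110, AGA in 65, CGT in 29 and CGC in 15. In p19-/- 1 arginine made up 68.5% of the basic residues, against 81.8% to 93.2% in the other 4 mice. R and K outnumbered the acidic residues in 70% of basic clones there, and in 44.4% to 60% elsewhere.

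The positions of the basic residues are a description, since the rule selected on these residues and no expected share was computed. In 138 of 244 basic clones (56.6%) at least 2 of them were neighbours. Related clones were each counted, such as 17 of IGHV1-47 in p19-/- 2. With the trimmed CDR3 cut into 3 equal stretches, 54.1% of them lay in the stretch next to the V gene, 42.4% in the middle one and 3.50% in the one next to the J gene. The first trimmed position alone was R or K in 118 clones. Acidic residues, aspartate (D) and glutamate (E), were present in 228 of the 244, and R and K outnumbered D and E in 140, matched them in 81 and fell short in 23. A clone called basic by the rule was thus net positive within the trimmed CDR3 in 57.4% of cases.

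Basic clones made up 9.95% of clones in p19-/- 1 (40 of 402; exact 95% binomial interval 7.20 to 13.3), 14.3% in p19-/- 2 (45 of 314; 10.6 to 18.7) and 5.01% in p19-/- 3 (45 of 899; 3.67 to 6.64). They made up 7.96% in WT 1 (84 of 1055; 6.40 to 9.76) and 5.61% in WT 2 (30 of 535; 3.81 to 7.91). The intervals cover counting error only. The p19-/- mice ranged on both sides of the WT mice, so the genotypes overlapped. Means were 9.76% ± 4.67 (SD, n = 3) and 6.78% ± 1.66 (SD, n = 2), a difference of 2.98 percentage points that did not pass an exact permutation test (two-sided p = 0.6, smallest possible 0.2). Leaving out 1 mouse at a time gave 0.693 (without p19-/- 2) to 5.36 points (without p19-/- 3), and counting each lineage once gave 0.645. A lineage here means clones of 1 mouse with the same V gene, J gene and CDR3 length and 85% nucleotide identity.

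Basic clones were found in most isotypes at similar shares. Over all mice they were 7.49% of IgG1, 8.98% of IgG2b, 8.29% of IgG2c, 6.31% of IgG3 and 7.10% of IgM clones. IgD had 1 basic clone in 61 (1.64%), IgA had 0 in 36, which allows a share of up to 8.33%, and IgE had 2 in 9. IgG2b, the isotype named in the series title, held 5.56%, 15.6% and 5.05% basic clones in p19-/- 1 to 3 and 11.4% and 8.0% in WT 1 and 2. Those genotypes overlapped as well.

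The IgM share set 1 mouse apart. It was 10.8%, 29.4% and 4.35% in p19-/- 1 to 3 and 7.41% and 2.48% in WT 1 and 2. In p19-/- 2, 12 of the 15 basic IgM clones belonged to a single lineage. Switched clones (IgG, IgA or IgE) were more often basic than unswitched ones (IgM or IgD) in 4 of 5 mice, by 0.278, 1.45, 1.14 and 4.26 points in p19-/- 1, p19-/- 3, WT 1 and WT 2. In p19-/- 2 the difference was -15.2 points, which turned the mean to -1.61 (exact sign-flip permutation p = 1.0). With 1 clone per lineage the mean was 1.02 (exact permutation p = 0.375), and without p19-/- 2 it was 1.78 (exact permutation p = 0.125). IgD clones were less often basic than IgM clones in 5 of 5 mice, and so were IgA clones; both gave the smallest exact permutation p possible, 0.062, and 0.219 after adjustment over 7 isotypes. The IgD and IgA clones were few in every mouse.

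**Figure D1:**
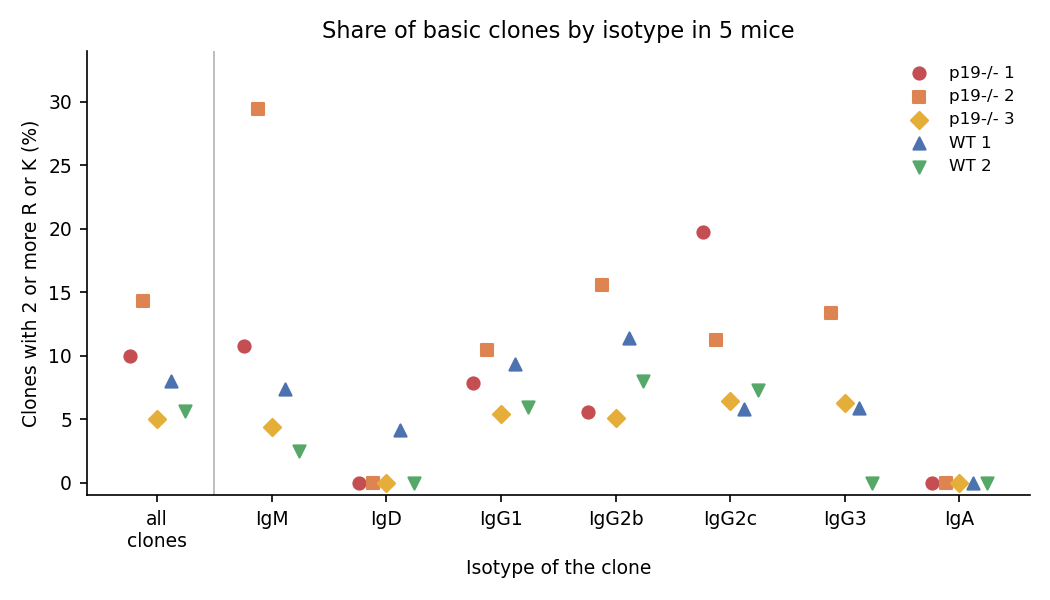
Percent of clones with 2 or more R or K (vertical axis) in all clones and by isotype (horizontal axis), 1 point per mouse. IgM of p19-/- 2 stands at 29.4%, and IgA lies at 0 in all 5 mice; IgE, with 9 clones, is not drawn.

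That lineage, of IGHV1-47, IGHD2-4 and IGHJ4, was the largest basic one, with 17 basic clones in 32 barcodes of p19-/- 2. Of the 17, 16 were paired with the kappa segment IGKV16-104 and 12 were IgM; the others were IgG1, IgG2b and IgG3. Closely related chains with the same heavy and light V genes occurred in p19-/- 3 (1 basic clone) and in WT 2 (11 clones with exactly 1 R or K). The most abundant sequence of each mouse is shown, since the rule's threshold divides them.
p19-/- 2, 13 barcodes, IgM: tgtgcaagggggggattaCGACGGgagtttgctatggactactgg
p19-/- 3, 1 barcode, IgM: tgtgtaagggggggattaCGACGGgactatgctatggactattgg
WT 2, 3 barcodes, IgM: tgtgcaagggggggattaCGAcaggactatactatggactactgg
Positions are counted from 1 at the first base of the CDR3, with the p19-/- 2 sequence as reference. The p19-/- 3 clone differed at 4 of 45 bases (C5T, G27C, T29A and C42T). The WT 2 clone also differed at 4 (G23A, G27C, T29A and G31A), of which G23A replaced the second counted arginine (R8Q, counting residues from the first of the CDR3). All 11 WT 2 clones were IgM. The light chains were not identical: none of the WT 2 or p19-/- 3 clones had the light-chain CDR3 most common in p19-/- 2. No barcode shared between libraries carried the same heavy chain in both.

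Related chains in different mice were looked for over all clones, after the data were seen, requiring the same V gene, J gene and length and 85% nucleotide identity. A counterpart in another mouse was found for 18 of 244 basic clones (7.38%), 20 of 855 with 1 (2.34%) and 31 of 2106 with 0 (1.47%). All 18 basic ones were IGHV1-47 chains and came from 2 lineages, so the larger share rests on 1 expanded family; the 31 clones with 0 came from 29 lineages. A CDR3 with identical sequence and V and J genes occurred in 2 mice 2 times, never in a basic clone.

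Of the 2743 lineages, 192 held a basic clone and 216 held several clones. In 15 of the 216 every clone was basic, and 17 had members with different numbers of R and K. Basic and other clones occurred together in 4 lineages, where all the other clones had 1, none 0. In the largest of the 4, from WT 1 (IGHV1-26 and IGHJ4, 24 clones in 57 barcodes), 22 clones had 1 and 2 were basic. Its most abundant clone and both basic ones read as follows.
1 arginine, IgG2b, 25 barcodes: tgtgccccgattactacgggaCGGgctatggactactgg
2 arginines, IgG2b, 1 barcode: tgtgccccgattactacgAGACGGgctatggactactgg
2 arginines, IgG2c, 1 barcode: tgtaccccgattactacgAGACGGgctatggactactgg
Against the first sequence both basic clones carried G19A, which gives G7R, and the IgG2c clone also carried G4A. Each basic clone of that lineage was seen in a single barcode.

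CDR3 length was the measure outside the rule that separated the classes most evenly. The trimmed CDR3 of basic clones averaged 10.9, 11.3 and 11.7 residues in p19-/- 1 to 3 and 10.8 and 11.7 in WT 1 and 2. Clones with 0 averaged 9.64, 10.0, 10.4, 9.88 and 10.0 in the same order, so every basic mean lay above every mean of the clones with 0. The difference was 1.30 residues ± 0.282 (SD, n = 5), positive in 5 of 5 mice and at the smallest exact permutation p possible (0.062). A longer stretch has more positions that can be R or K. With the mice pooled, the share of basic clones was 2.92% at lengths of 2 to 7 and 4.77% at 8 to 9. It was 11% at 10 to 11, 7.77% at 12 to 13 and 10.9% at 14 to 19. At 10 to 11 it was 11.7%, 24.5% and 5.43% in p19-/- 1 to 3 and 11.8% and 7.59% in WT 1 and 2. In p19-/- 2, 17 of those 25 basic clones were of the IGHV1-47 lineage. Whether the number of positions bears on the difference in length was not tested.

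**Figure D2:**
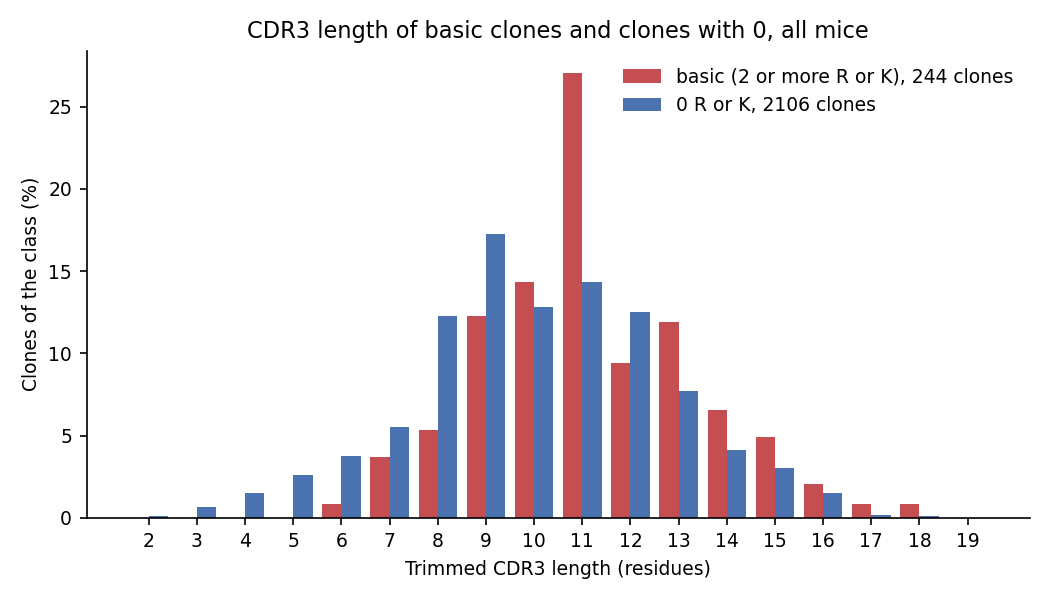
Percent of clones of each class (vertical axis) by trimmed CDR3 length in residues (horizontal axis), all 5 mice pooled, basic clones in red and clones with 0 in blue. Basic clones are most frequent at 11 residues, and none is shorter than 6.

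Basic clones had no deficit of acidic residues that passed a test. They averaged 1.56 ± 0.150 D or E (SD, n = 5), and clones with 0 averaged 1.64 ± 0.140. The difference of -0.082 was negative in 4 of 5 mice (exact permutation p = 0.188, smallest possible 0.062). Tyrosine, a frequent residue of mouse CDR3s, averaged 1.79 ± 0.252 in basic clones and 2.38 ± 0.170 in clones with 0, and was lower in 5 of 5 mice. Every residue that is R or K cannot be another, so tyrosine and length are not independent of the count.

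J gene use leaned from IGHJ2 and IGHJ3 to IGHJ4 and IGHJ1, without passing the test. IGHJ4 was used by 37.5%, 53.3% and 57.8% of basic clones in p19-/- 1 to 3 and by 45.2% and 20% in WT 1 and 2. Among clones with 0 it was used by 29.7%, 30.6%, 38.2%, 29.2% and 32.9%. It was thus higher in basic clones of 4 mice and lower in WT 2, a mean difference of 10.6 points ± 14.3 (SD, n = 5). Related clones were each counted: of the basic IGHJ4 clones, 17 of 24 in p19-/- 2 and 7 of 15 in p19-/- 1 came from 1 lineage each. So did 7 of the 12 basic IGHJ1 clones of p19-/- 2. IGHJ2 was lower in 5 of 5 mice, by a mean of 9.09 points (22.8% ± 7.17 against 31.9% ± 1.99). IGHJ3 was lower in 4 of 5, with 14.7% ± 9.42 against 21.7% ± 1.40. IGHJ1 was higher in 4 of 5, with 19.7% ± 6.71 against 14.2% ± 1.07. Exact sign-flip permutation p was 0.062 for IGHJ2, 0.188 for IGHJ1 and IGHJ4 and 0.312 for IGHJ3; adjusted over the 4 J genes these were 0.25, 0.25, 0.25 and 0.312. With classes set by net charge (R and K minus D and E) of 1 or more against 0 or less, the IGHJ4 difference turned to -13.1 points and that of IGHJ3 to 19.3.

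**Figure D3:**
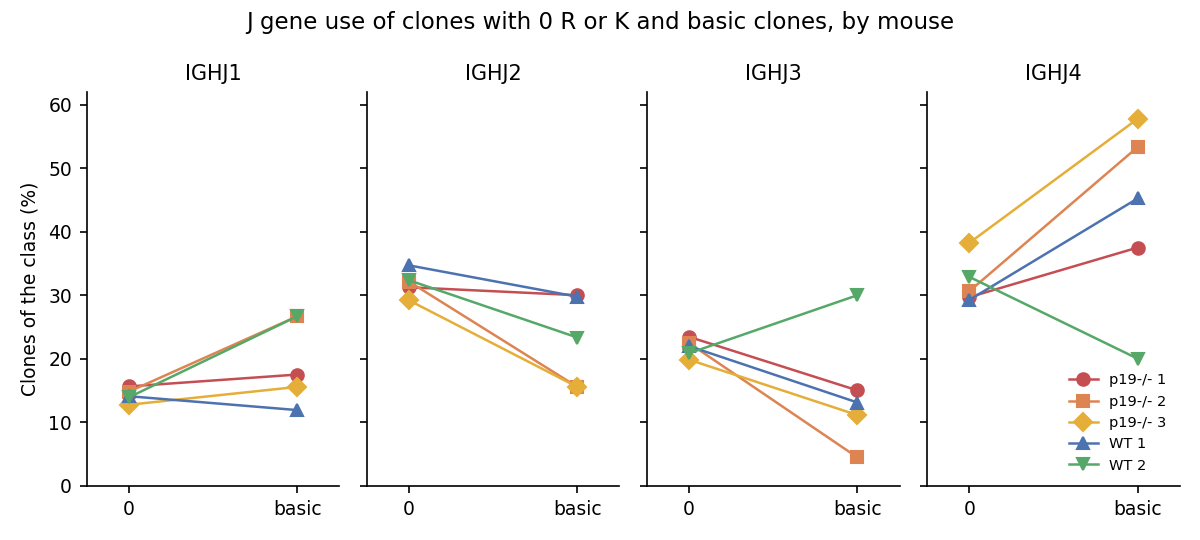
Percent of clones using each J gene (vertical axis) among clones with 0 R or K and basic clones (horizontal axis), 1 line per mouse. All 5 lines fall for IGHJ2, and for IGHJ4 all rise except WT 2, which goes from 32.9% to 20%.

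No V gene passed the test between basic clones and clones with 0 (edgeR quasi-likelihood test with mouse as a block, 0 of 56 V genes, 0%; 5 had an unadjusted p under 0.05). The lowest p was that of IGHV1-47, with 19 basic clones against 3 with 0 (log2 difference in share 4.32, SE 1.30, adjusted p = 0.0591 by the edgeR test). Its 3 clones with 0 are fewer than the number of clones a V gene needed to be tested. IGHV1-47 thus entered the test through its basic clones, and nothing is read from its direction or its p. Of the 19, 17 came from the lineage of p19-/- 2 and 1 each from p19-/- 3 and WT 1. By net charge its log2 difference was -1.22. The next by p among those higher were IGHV5-17 (9 against 28 clones, adjusted p = 0.775 in edgeR), 7 of whose 9 came from p19-/- 1, and IGHV5-9 (2 against 8).

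On the lower side, 8 of the 56 V genes tested had no basic clone, against 239 clones with 0 together. Before the filter 33 V genes had none, against 347 clones with 0. Such a gene reaches the 10 clones needed through clones with 0 alone, so these counts are a description and test nothing. The 3 of lowest p were IGHV14-2 (0 against 76), IGHV1-74 (0 against 36) and IGHV10-1 (0 against 40), with adjusted p of 0.278, 0.343 and 0.383 in edgeR. A count of 0 among 244 basic clones allows a share of up to 1.23%. IGHV14-2 made up 3.61% of clones with 0, though 47 of its 76 clones came from p19-/- 3. By number, basic clones used IGHV1-26 most (25, 10.2% of basic clones), then IGHV1-47 (19), IGHV9-3 (13), IGHV1-18 (12), IGHV1-82 (11) and IGHV1-9 (10). IGHV1-26 was also used by 7.36% of clones with 0. Of the 12 basic IGHV1-26 clones in p19-/- 2, 7 belonged to 1 lineage.

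D genes lie at the centre of the CDR3 and encode part of the residues that were counted, so the rule partly sets their use and the values are a description. They were looked at after other results were seen. Shares are of the 234 basic clones and 1926 clones with 0 that had a D gene called. IGHD2-3 was used by 13 basic clones (5.56%) and 282 clones with 0 (14.6%), a log2 difference of -1.39 that was negative in 5 of 5 mice. IGHD2-4 was used by 59 basic clones (25.2%) and 287 with 0 (14.9%), a log2 difference of 0.69 that was positive in 4 of 5. With 1 clone per lineage IGHD2-4 was 0.46, and by net charge it was -0.41. The edgeR fit marked 2 of 12 D genes (16.7%), from which nothing is read.

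The printed clones of p19-/- 2, p19-/- 3 and WT 1 share the 8 bases ATTACGAC, a motif chosen after the data were seen and counted on the coding strand of all CDR3s. They were present in 35 of 244 basic clones (14.3%), from 21 lineages, and in 108 of 2106 clones with 0 (5.13%). What differed was the reading frame. In 32 of the 35 basic clones the frame held the codon CGA, an arginine, as in the sequences above. In 104 of the 108 clones with 0 the same bases were read as TAC and GAC, a tyrosine and an aspartate. A clone in the first frame has an arginine there by construction, so the count describes which CDR3s the rule gathered and tests nothing.

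Basic light-chain CDR3s were not more frequent beside basic heavy chains by the test made. The trimmed light-chain CDR3 held 1 or more R or K in 8.33%, 28.6% and 13.3% of paired basic clones in p19-/- 1 to 3 and in 16.0% and 10.3% in WT 1 and 2. Clones with 0 had 16.5%, 21.2%, 20.5%, 21.8% and 23.4%. The share was lower in basic clones of 4 mice and higher in p19-/- 2 (mean difference -5.35 points, exact permutation p = 0.25). Lambda chains were paired with 1.88% ± 2.58 of basic clones and 3.92% ± 2.38 of clones with 0 (SD, n = 5). In p19-/- 1, p19-/- 2 and WT 2 no basic clone had a lambda chain.

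No light-chain V gene passed in edgeR (0 of 60, 0%; 6 had an unadjusted p under 0.05). IGKV3-4 was paired with 21 basic clones (9.01%) and 58 clones with 0 (2.83%), a log2 difference of 1.62 (SE 0.530, adjusted p = 0.152 in edgeR). The 21 basic clones came from 21 lineages, 4 in p19-/- 1, 6 in p19-/- 3, 6 in WT 1, 5 in WT 2 and none in p19-/- 2. With 1 clone per lineage IGKV3-4 passed (log2 1.97, adjusted p = 0.000202 in edgeR), as it did without p19-/- 2 (2.00, 0.000918 in edgeR) and without the mouse block (1.66, 0.0313 in edgeR). It did not pass in the other 8 alternatives, where adjusted p ran up to 0.678 in edgeR. IGKV16-104 was paired with 18 basic clones and 13 with 0 (log2 2.36, adjusted p = 0.377 in edgeR), and 16 of the 18 were in p19-/- 2. The clones with 1 R or K held 49 IGKV3-4 and 20 IGKV16-104 pairs.

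Clone size did not separate the classes. Clones seen in 2 or more barcodes were 17.5%, 8.89% and 2.22% of basic clones in p19-/- 1 to 3 and 4.76% and 6.67% in WT 1 and 2. Among clones with 0 they were 5.47%, 5.10%, 9.35%, 5.61% and 4.28%. The mean difference was 2.05 points (exact permutation p = 0.625), positive in 3 mice and negative in 2. In all, 18 basic clones and 135 clones with 0 were expanded.

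Heavy chains were joined by barcode to RNA within each mouse. Of 4103 barcodes with a heavy chain, 3918 were present in the RNA libraries. After filters on mitochondrial RNA, gene number and doublets, 3415 were kept, 230 of basic clones and 2309 of clones with 0. Across the libraries 68 of 11355 RNA barcodes and 9 heavy-chain barcodes were shared between mice. Clusters led by cell-cycle genes, Gcsam, Myc or Cd83 were called germinal centre (GC) B-like from their markers, and others plasma cell-like (Jchain, Derl3, Prdm1), mature non-GC B-like (Klf2, Ccr7) or T-like. The basic cells were mostly B cells, as labelled: 171 were GC B-like, 25 in an unnamed cluster led by Klf2 and Vim, 16 plasma cell-like, 12 mature non-GC B-like and 1 in the Sox4 cluster. T-like clusters held 5 basic cells and 82 cells of clones with 0. Of the 5, 4 were from p19-/- 2.

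The share of GC B-like cells among basic cells was 74.4%, 69.8% and 80.0% in p19-/- 1 to 3 and 73.0% and 75.9% in WT 1 and 2. Among cells of clones with 0 it was 23.5%, 69.1%, 69.0%, 75% and 68.5%. The single low value, p19-/- 1, includes the expanded IgM clone: 225 of its 409 cells with 0 lay in the Sox4 cluster. The RNA library of p19-/- 1 also lost 891 of 2474 barcodes to the mitochondrial filter. The losses in p19-/- 2 and 3 were 140 of 1104 and 238 of 2595. Those in WT 1 and 2 were 380 of 3226 and 258 of 1956. Median heavy-chain UMIs per barcode were 4 in p19-/- 1 and 12 to 23 elsewhere. Whether this bears on the low value was not tested. The difference in GC B-like share was 13.6 points ± 21.5 (SD, n = 5, exact permutation p = 0.188). Without p19-/- 1 it was 4.26 points (exact permutation p = 0.375). With 1 cell per clone it was 2.87 points (exact permutation p = 0.312), and without the Sox4 cluster 7.01, an alternative chosen after the data were seen.

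The only genes that passed between the RNA of basic cells and of cells with 0 were immunoglobulin V segments. Of 8284 genes tested on UMI sums per mouse, 7 passed (0.0845%; edgeR quasi-likelihood test, mouse as a block), all lower in basic cells and all V segments: Igkv10-94, Igkv4-55, Ighv14-2, Ighv1-74, Iglv2, Igkv5-48 and Igkv19-93. An unadjusted p under 0.05 was reached by 370 genes (4.47%). Each of these segments is the message of the clones that use it. A segment with 0 basic clones can enter the test through the cells with 0 alone and can then only be lower. Nothing is read from the direction of such segments. Ighv14-2 and Ighv1-74 were the heavy V gene of 0 basic clones and of 76 and 36 clones with 0. Igkv10-94, Igkv4-55, Iglv2 and Igkv19-93 were the called light chain of 0 basic clones and of 17, 18, 22 and 31 clones with 0. Igkv5-48 was that of 1 basic clone and 21 with 0. Without immunoglobulin genes, 0 of 8190 genes passed in edgeR (382 unadjusted).

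Gene groups were described by count and median beside all genes tested, whose median log2 difference was 0.00385 with 50.9% positive. Of 12 GC B cell markers 11 were positive (median 0.18), as were 13 of 14 dark-zone genes (0.11), 18 of 20 S-phase genes (0.11) and 12 of 14 plasma cell and secretion genes (0.27). Of 10 mature non-GC B markers 1 was positive (median -0.34), and of 16 light-zone genes 1 (-0.37). No member of these groups passed the adjusted test. Groups of BCR signalling (6 of 18 positive, -0.055), nucleic acid sensing (6 of 14, -0.043), type I interferon response (4 of 8, -0.20), inhibitory receptors (3 of 14, -0.079) and anergy (3 of 10, -0.17) likewise had no called member. Of the receptor editing and recombination genes, which act when a self-reactive receptor is replaced, 1 of 7 was abundant enough to test. The makeup of cell classes was not held fixed here, and whether it bears on these lists was not tested. The comparison was also made within GC B-like cells.

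Within GC B-like cells, 171 basic and 1444 with 0, 11 of 7409 genes passed (0.148%), all lower in basic cells. Of these, 9 were V segments: Igkv19-93, Igkv6-25, Igkv4-59, Igkv4-55, Iglv2, Ighv1-74, Igkv6-13, Ighv14-2 and Ighv1-64. Igkv19-93, Igkv4-55, Iglv2, Ighv1-74 and Ighv14-2 had 0 basic clones, so the limit given above holds for them here too. Over all cell classes, Igkv6-25, Igkv4-59, Igkv6-13 and Ighv1-64 were the called V gene of 2, 6, 1 and 6 basic clones. They were that of 40, 31, 10 and 106 clones with 0. By clones IGKV4-59 went the other way, with 2.58% of basic clones and 1.51% of clones with 0. Nothing is read from the direction of these segments either. The other two were Myc and Gm42418, an unnamed model known to overlap the ribosomal RNA repeat. An unadjusted p under 0.05 was reached by 275 genes.

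Myc encodes a transcription factor that is induced in germinal centre B cells selected with T cell help and drives growth and re-entry into division. Its summed level in basic GC B-like cells was 81.1, 26.5 and 34.7 CPM (UMIs scaled to a common library total) in p19-/- 1 to 3 and 8.83 and 32.5 CPM in WT 1 and 2. These rest on 47, 15, 18, 5 and 13 UMIs. In GC B-like cells with 0 it was 152, 52.6, 60.7, 44.8 and 68.7 CPM. The level was lower in basic cells of every mouse, although p19-/- 1 stood higher than the other mice in both classes. The fitted log2 difference was -1.10 (SE 0.175, adjusted p = 0.0282 in edgeR). In GC B-like cells with exactly 1 R or K, Myc stood at 64.4, 211, 67.5, 54.1 and 67.1 CPM, scaled by total UMIs alone, without TMM factors, and p19-/- 2 stood far above the other mice. On the same scale the means were 74.9 ± 42.6 CPM at 0, 92.8 ± 66.4 at 1 and 35.9 ± 25.4 at 2 or more (SD, n = 5), and the mean at 1 rests on p19-/- 2. Cells with 1 were above those with 0 in p19-/- 2, p19-/- 3 and WT 1, between the classes in WT 2 and below both in p19-/- 1.

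The Myc call depended on the settings. Its direction was the same under all 12 alternatives tried, from -1.18 to -0.81, and its adjusted p was below 0.05 in 6 of them. It was 0.00153 in DESeq2 and 0.0385 with 1 cell per clone, and 1.00 for clones with 3 or more R or K and without the mouse block. Leaving out p19-/- 1, p19-/- 2 or WT 2 raised it to 0.121, 0.0573 or 0.0681 in edgeR. Basic GC B-like cells were also deeper in every mouse, with median UMIs of 17143 against 14205, 17139 against 12440, 13393 against 11217, 10130 against 8625 and 17586 against 16019. With every cell thinned to 4000 UMIs, chosen after the data were seen, the log2 difference of Myc was -0.81 and its adjusted p 1.00 in edgeR. The sums do not tell fewer Myc-expressing cells from less Myc per cell.

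**Figure D4:**
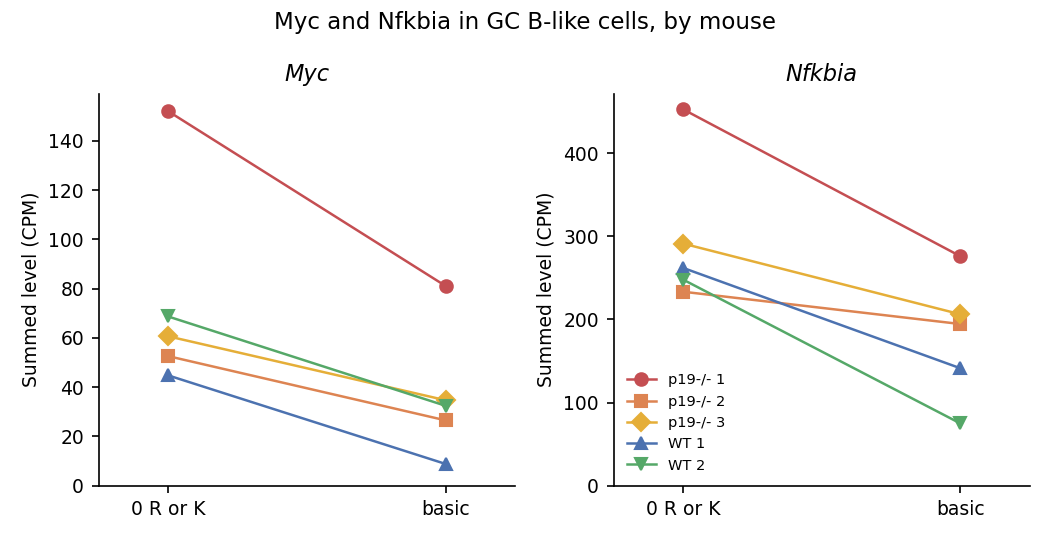
Summed level in CPM (vertical axis, from 0) of Myc and Nfkbia in GC B-like cells of clones with 0 R or K and of basic clones (horizontal axis), 1 line per mouse. Every line falls for both genes; Myc passed the adjusted test (0.0282) and Nfkbia did not (0.154).

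The germinal centre light zone is where B cells test antigen and meet T cells, and its genes include targets of NF-kB and CD40 signalling. All 14 light-zone genes tested in GC B-like cells had a negative fitted difference, with a median of -0.43 beside 0.0058 over all genes (51.8% positive). Myc was the 1 called, and 9 of the 14 had an unadjusted p under 0.05, against 3.71% of all genes. Genes of 1 program vary together across cells, so the 14 are not independent. The GC B-like class also pools several clusters, whose makeup was not held fixed. The cluster led by Cd83 held 16 of the 171 basic cells and 242 of the 1444 cells with 0. The cluster with Srm and Myc among its leading genes held 28 and 206. Whether this makeup bears on the light-zone values was not tested.

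Nfkbia, the inhibitor that NF-kB itself induces, stood at 276, 195, 206, 141 and 74.9 CPM in basic cells of p19-/- 1 to 3 and WT 1 and 2. In cells with 0 it stood at 453, 233, 291, 262 and 248 CPM, higher in 5 of 5 mice (log2 -0.77, SE 0.153, adjusted p = 0.154 in edgeR; 0.000152 in DESeq2). Cd83, a light-zone surface marker, stood at 247, 127, 143, 242 and 99.9 CPM in basic cells and 334, 217, 279, 216 and 220 CPM in cells with 0. It was lower in 4 mice and higher in WT 1 (log2 -0.60, adjusted p = 0.732 in edgeR). Ccnd2, a cyclin of the G1 phase, had 12, 9, 4, 1 and 0 UMIs in basic cells (log2 -1.38, adjusted p = 0.816 in edgeR). Cd86 (-0.57), Slamf1 (-0.46), Cd40 (-0.40), Traf1 (-0.35) and Fcer2a (-0.74) had adjusted p of 1.00 in edgeR.

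**Figure D5:**
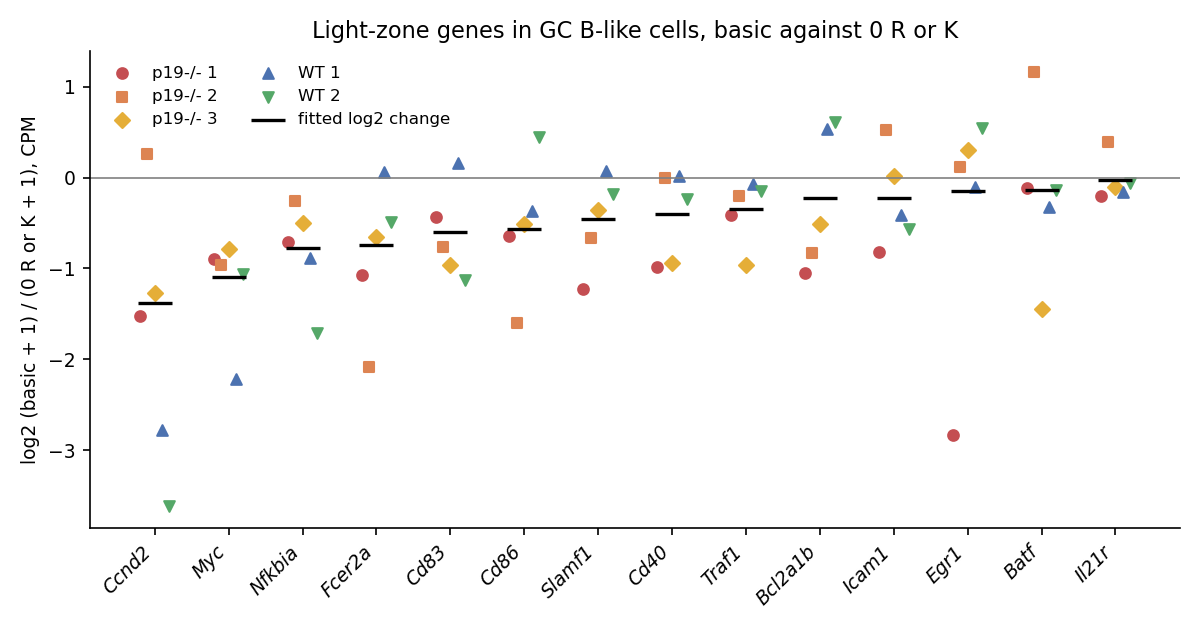
Log2 ratio of basic cells to cells with 0 R or K, each as CPM plus 1 (vertical axis), for the 14 light-zone genes tested in GC B-like cells (horizontal axis), 1 point per mouse, with the fitted log2 change as a black bar. All bars lie below 0, and for Myc, Nfkbia and Traf1 all 5 points do.

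Of 12 germinal centre B cell markers, 7 were positive in GC B-like cells (median 0.00615) and none passed. Bcl6, the master regulator of the germinal centre, had a fitted difference of -0.013 (SE 0.117). Of 14 dark-zone genes, 11 were positive (median 0.072), and of 20 S-phase genes 16 (0.073); of 20 genes of G2 and M phase 9 were (-0.017). MHC class II genes were positive in 4 of 11 (-0.025), nucleic acid sensing in 2 of 13 (-0.13) and BCR signalling in 6 of 18 (-0.058). None of these genes passed. Ighg2b had a fitted difference of 0.56 (adjusted p = 0.816 in edgeR), with 235, 168, 226, 336 and 359 CPM in basic cells against 288, 114, 136, 173 and 207 CPM. It was higher in 4 of 5 mice and lower in p19-/- 1.

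Basic cells of the genotypes were compared on 5 sums, from 39, 43 and 45 cells in p19-/- 1 to 3 and 74 and 29 in WT 1 and 2. Of 6645 genes, 4 passed (0.0602%; edgeR), all lower in p19-/-: Ighg1, Igkv3-2, Jchain and Slpi (413, or 6.22%, had an unadjusted p under 0.05). Ighg1, the IgG1 constant gene, stood at 243, 155 and 378 CPM in p19-/- and 4020 and 3113 CPM in WT (log2 -3.79, SE 0.325, adjusted p = 0.00867 in edgeR). Jchain, which joins IgM and IgA multimers, stood at 1964 ± 259 and 5154 ± 673 CPM (log2 -1.39). Slpi, a secreted protease inhibitor among the leading genes of the plasma cell-like cluster, had a log2 difference of -3.79 (adjusted p = 0.0199 in edgeR). No p19-/- value overlapped a WT value for these 3. The same held for genes that did not pass, such as Hspa8 and Hsph1, so the separation adds nothing to the calls.

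These 4 differences rest on few cells. The WT sums held 8 and 2 plasma cell-like cells, the p19-/- sums 3, 2 and 1. In WT 1 and WT 2, 92.1% and 92.2% of Ighg1 UMIs came from plasma cell-like cells, and a single cell gave 61.9% and 92.1%. For Igkv3-2 1 cell gave 99.6% and 99.9%. Without plasma cell-like cells, an alternative chosen after the data were seen, the log2 differences were -0.17 for Ighg1, 0.28 for Jchain and -0.85 for Slpi, and Igkv3-2 turned to 3.40. None of the 4 passed then, and 1 other gene, Ighm, did (higher in p19-/-, log2 2.38, adjusted p = 0.0254 in edgeR).

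Heat shock chaperones, which assist protein folding, include several genes of low unadjusted p in that comparison. Hspa8 stood at 2907, 2459 and 2511 CPM in p19-/- and 1237 and 1572 CPM in WT (log2 0.90, adjusted p = 0.231 in edgeR). Hsph1 (1.42), Dnajb1 (0.79) and Hsp90aa1 (0.69) had fitted values of the same sign, adjusted p of 0.631, 0.726 and 0.726 in edgeR. Of the 14 immediate early and heat shock genes tested, 6 were positive and 8 negative (median -0.10), and 7 had an unadjusted p under 0.05, beside 6.22% of all genes. Myc stood at 50.5 ± 21.6 CPM in p19-/- and 18.4 ± 11.7 CPM in WT basic cells (adjusted p = 0.773 in edgeR). None of the light-zone genes passed (9 of 15 positive, median 0.16).

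Whether the genotype difference itself differed between basic cells and cells with 0 was tested by an interaction with mouse as a block. Ighg1 was the 1 gene of 9025 that passed (0.0111%; log2 -3.18, adjusted p = 0.0318 in edgeR; 340, or 3.77%, unadjusted). Without plasma cell-like cells 0 genes passed in edgeR (350 unadjusted).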

How the data were processed

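Per the submitters' processing notes, the authors used Cell Ranger 3.0.2 and STAR with the mm10 build. The authors deposited raw UMI counts per gene and barcode, and contig tables with UMI counts and V, D, J and constant calls. The members and gene lists were chosen with earlier results of these data known. Barcodes with over 10% mitochondrial UMIs or under 200 genes were removed. Scrublet's own threshold marked 28 of 9356 barcodes, so the expected number of highest scores (0.8% per 1000 barcodes; 186) was removed. Joined cells were clustered without immunoglobulin genes (scanpy 1.11.5; 2000 genes, 20 components, 20 neighbours, resolution 1), and clusters were named only from fixed markers. Their UMI counts were summed per mouse and class and tested in edgeR 4.0.16 (TMM, filterByExpr, quasi-likelihood, Benjamini-Hochberg, threshold 0.05) with mouse as a block; V, D and light V genes needed 10 clones. DESeq2 1.42.0 was an alternative. Fits were tested on simulated data: 61.2% of 2-fold and 98.5% of 4-fold changes were recovered for basic against 0. For the genotype comparison 77.3% of 4-fold and 8.96% of 2-fold changes were recovered, and 13.6% of the calls were false. Single values were compared by exact permutation over mice; 3 against 2 cannot reach 0.05, nor can 5 pairs. The 5 RNA libraries held 7712457 to 18093053 UMIs. The rule for named genes took genes with adjusted p under 0.05 and at least 10 CPM, up to 15 per direction, without receptor segments, sex-linked or mitochondrial genes and unnamed models, plus listed key genes. J genes were all named, as were the 6 V genes with most basic clones and the 3 of lowest p per direction. Segments and Gm42418 are named beyond the rule, as are light V and D genes, other list members and the IGHV1-47 family, chosen after their values were seen. The labels give no batch. Each mouse gave 1 library of each kind, so the spread between mice includes technical spread. Some items are not reported here.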

Additional observations from a re-analysis of the deposited data

Results flagged for a closer look

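In 3 of 18 within-mouse differences looked at, 1 mouse stood apart from the other 4 by Dixon's gap test. Chance flags about 1 in 20 such groups. The switched minus unswitched difference in basic share was -15.158 points in p19-/- 2. The IgG1 minus IgM difference in basic share was -18.995 points, also in p19-/- 2. Both share the IgM clones of that mouse, 12 of whose 15 basic ones are from the IGHV1-47 lineage. The GC B-like share of cells, basic minus 0, was 50.887 points in p19-/- 1, the mouse with the expanded IgM clone of 321 barcodes. The effect of genotype on Ighg1 differed between basic cells and cells with 0, with an interaction of -3.18 on the log2 scale. In basic cells of WT 1 and WT 2, 92.1% and 92.2% of Ighg1 UMIs came from plasma cell-like cells. That share was not counted in cells with 0, which also enter the interaction.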

How the results depend on the processing

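Basic clones were few (30 to 84 per mouse) and every test over mice had 5 pairs or fewer, which limits what could pass. Single values were compared by sign alone, whatever their size, and gene counts by whether they stayed within 1.5 times. Among those that answer a comparison, 134 were the same by these rules under the alternatives. Counts that moved by over 1.5 times, or to or from 0, numbered 51, and 8 values changed sign. For single genes and isotypes, 901 values were the same, 68 weaker, 47 stronger and 28 reversed. The cause was not tested for any of these. The switched minus unswitched share (main -1.61 points) was 1.65 with 3 or more R or K, 1.76 by net charge, 1.02 with 1 clone per lineage, and -3.07 to 1.78 leaving out 1 mouse. IgG1 minus IgM was 0.163, 0.0287 and 0.386 under the first 3 of these and -4.72 to 0.886 leaving out 1 mouse (highest without p19-/- 2). IgG2b minus IgM was 1.31, 1.18 and 1.06, and -3.61 to 1.24 leaving out 1 mouse. IgG2c minus IgM was 4.70, 4.18 and 0.782, 2.03 with 1 heavy contig of 3 or more UMIs, and -3.22 to 3.56 leaving out 1 mouse. IgG3 minus IgM was 3.41 by net charge; IgE minus IgM was -0.670 with 3 or more and -1.99 to 20.9 leaving out 1 mouse (lowest without p19-/- 1). Expanded clones gave -0.0655 by net charge and -0.450 to 4.34 leaving out 1 mouse. By net charge IGHJ3 was 19.3, IGHJ4 -13.1, IGHV1-47 -1.22, IGKV16-104 -0.77 (and -3.64 with 3 or more) and IGHD2-4 -0.41. With 3 or more, Jchain was -0.17 and, in GC B-like cells, Ighg2b -1.24. Without plasma cell-like cells Igha was 0.27 (basic against 0), and Jchain 0.28, Igkv3-2 3.40 and Ighg3 1.86 (genotype); Ighg3 was -5.50 to 2.86 leaving out 1 mouse (highest without WT 1). The interaction of Fcer2a was 0.18 when thinned.

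Called V genes numbered 1 without the mouse block and 1 at middle CDR3 lengths, and 0 to 1 leaving out 1 mouse. Light V genes numbered 2 without the block, 1 with 1 clone per lineage and 0 to 1 leaving out 1 mouse. D genes numbered 1 when all genes were tested, 0 with 3 or more R or K, 1 by net charge, 1 per lineage, 4 at middle lengths and 0 to 2 leaving out 1 mouse. For basic against 0 (7 genes) DESeq2 called 18, genes with 1 or more UMI 35, no immunoglobulin genes 0, 3 or more R or K 34, thinning 3, no block 0, and leaving out 1 mouse 9 to 17. In GC B-like cells (11) the same gave 18, 87, 3, 23, 1, 2 and 11 to 18. For genotype (4) DESeq2 called 12, 1 or more UMI 183, 3 or more R or K 0, no plasma cell-like cells 1, sex as a covariate 12, and leaving out 1 mouse 2 to 13. For the interaction (1) DESeq2 called 3, 1 or more UMI 22, no immunoglobulin genes 0, 3 or more R or K 6, thinning 5, no plasma cell-like cells 0, and leaving out 1 mouse 0 to 7. With a replicate block the genotype comparison called 61 genes. The labels do not say that same-numbered mice are paired. Such mice correlated at -0.0776 and -0.0136. With 2 WT mice, the value for 1 WT mouse fixes that for the other with opposite sign, so the correlations cannot decide on pairing. Keeping doublets was not run for GC B-like cells, since doublets had no cluster.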
